A study of Mus musculus with 17 samples.

Results

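The BCL-2 family decides whether a T cell lives or dies by the mitochondrial route, and 9 of its genes were followed here in CD8 T cells of mouse lung tumours: Bcl2, Bcl2l1, Mcl1, Bcl2l11, Bax, Bak1, Bid, Bbc3 and Pmaip1. They were taken by gene symbol from a table of 27240 symbols as a list of known regulators of cell death, and all 9 were found in it. All 9 were also among the 20137 genes that passed the filter on low counts. The study sorted CD8 T cells by flow cytometry and sequenced their RNA in bulk. Its title asks how PD-L1 on endothelial cells, the cells that line blood vessels, bears on CD8 T cell exhaustion in non-small cell lung cancer.

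The libraries formed 4 groups. WT core held 5 libraries of cells from core-enriched tissue (large visible lung nodules) of WT mice, with the identifiers F164, H719, H873 and H876 and 1 library titled pool. KO core held 6 libraries of the same tissue from PDL1DEC mice, which lack endothelial PD-L1, named F219, F318, F319, F322, F86 and O. WT rim held 2 libraries of rim-enriched tissue (nodules within the lung parenchyma), H874 and H877, and KO rim held 4, F15, F322, F86 and O. The sources used here do not name the Cre driver, strain, ages or tumour model, or the number of animals behind the pool. Separate animals for separate libraries are not stated in the labels, so the p-values weigh differences against the spread between libraries.

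The gene products fall into classes by role. BCL-2, BCL-xL (from Bcl2l1) and MCL-1 keep the outer mitochondrial membrane intact. BAX and BAK (from Bax and Bak1) are the effectors that make it permeable, which releases cytochrome c and leads to caspase activation. BIM (from Bcl2l11), BID, PUMA (from Bbc3) and NOXA (from Pmaip1) carry a BH3 motif through which they bind the survival proteins, and some of them also bind the effectors. In T cells, BCL-2 is known to follow IL-7 signalling, BCL-xL to be induced by activation, and BIM to be the main killer of cells at the end of a response. NOXA binds mainly MCL-1, and Bbc3, Pmaip1 and Bax are known p53 targets.

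The stretch that codes for the BH3 motif is shown for 8 of the 9 members, to let survival, effector and BH3-only genes be compared side by side. That of Pmaip1 is not printed here. Each run is 42 bases of coding exon in GRCm38 (GENCODE vM21), given 5′ to 3′ on the coding strand. Capitals mark the leucine codon and, further on, a glycine or alanine codon followed by an aspartate codon.
Bcl2: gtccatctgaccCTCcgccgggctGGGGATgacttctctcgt
Bcl2l1: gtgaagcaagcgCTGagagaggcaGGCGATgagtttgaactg
Mcl1: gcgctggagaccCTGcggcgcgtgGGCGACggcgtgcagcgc
Bax: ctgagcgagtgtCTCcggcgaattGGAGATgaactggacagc
Bak1: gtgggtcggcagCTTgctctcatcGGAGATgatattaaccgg
Bcl2l11: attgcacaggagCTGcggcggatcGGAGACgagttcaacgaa
Bid: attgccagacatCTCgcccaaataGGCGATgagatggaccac
Bbc3: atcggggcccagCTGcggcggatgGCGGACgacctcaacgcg

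The Bcl2 run lies at chr1:106712572-106712613 (minus strand, exon 1), the Bcl2l1 run at chr2:152829694-152829735 (minus, exon 2) and the Mcl1 run at chr3:95659424-95659465 (plus, exon 1). Those of the effectors lie at chr7:45465994-45466035 (Bax, minus, exon 3) and chr17:27022528-27022569 (Bak1, minus, exon 4). The BH3-only runs shown lie at chr2:128147138-128147179 (Bcl2l11, plus, exon 3), chr6:120897286-120897327 (Bid, minus, exon 4) and chr7:16313761-16313802 (Bbc3, plus, exon 3). Exons are numbered within 1 GENCODE transcript per gene. The 7 other runs matched the Bcl2 run at between 15 (Bid) and 22 (Mcl1) of 42 bases. Bbc3 was the one with an alanine codon (GCG) where the other 7 have a glycine codon.

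The 17 libraries held 21767045 to 32566456 counts each, so that 3 counts, the upper limit that a count of 0 allows, amounted to at most 0.138 CPM (counts scaled to a common library size). All 6 T cell and CD8 markers were detected, with a summed level of 3626 to 7691 CPM per library. Markers of other cells were present as well: the sum over 10 macrophage and monocyte markers ran from 654 to 7663 CPM and that over 7 B and plasma cell markers from 204 to 4005 CPM. In bulk libraries, fewer cells of a type and less RNA per cell cannot be told apart. Y-linked reads summed to more than 1 CPM in both F322 and both O libraries and in the WT core pool. H876 had 0.179 CPM and the other 11 had none, and the 12 libraries at or under 1 CPM are called those without Y-linked reads. The deletion was made in the endothelium, so Cd274 reads of sorted T cells do not check the genotype label.

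Levels differed widely between members when expressed per length, as CPM per kilobase of exon. Pmaip1 came first, with a median of 106.5 over the 17 libraries and a range of 51.6 to 302. Bax followed at a median of 76.6 (57.6 to 91.9). Mcl1 (33.7, 24.8 to 54.5), Bcl2 (32.3, 10.5 to 57.2) and Bcl2l11 (24.8, 16.9 to 38.1) formed a middle tier in which neighbours overlapped over most of their ranges. Bcl2l1 (16.2, 7.70 to 21.5) and Bid (14.5, 8.90 to 24.6) came next and also overlapped. The low end was held by Bak1 (1.77, 0.401 to 2.81) and Bbc3 (1.53, 0.553 to 3.73), which overlapped with each other but with no other member. Of the effector pair, Bax therefore stood far above Bak1 in every library, and of the p53-linked BH3-only pair Pmaip1 stood far above Bbc3.

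**Figure D1:**
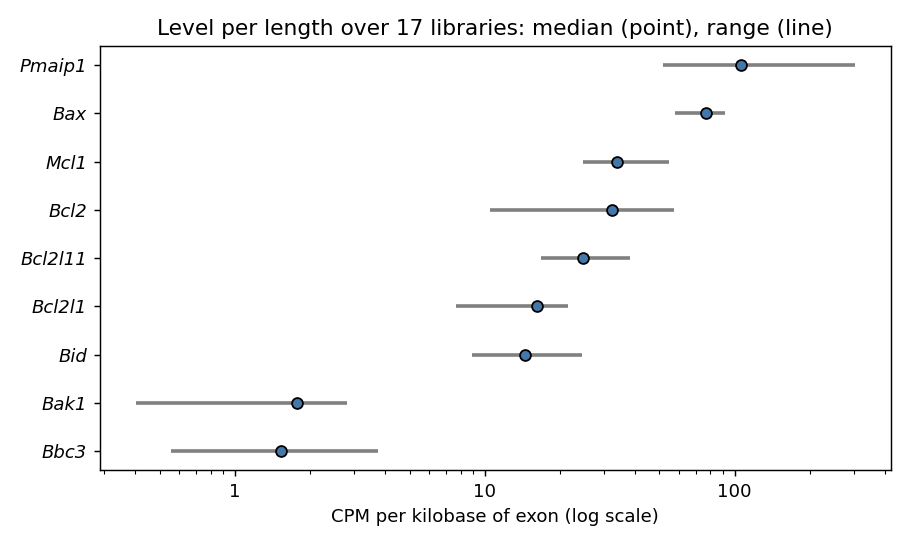
Level per length of each member, in CPM per kilobase of exon on a log scale, with the median over 17 libraries as a point and the lowest to highest library as a line. Pmaip1 and Bax lie at the top, and the lines of Bak1 and Bbc3 end below the start of all others.

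The members also differed in how much replicate libraries of 1 group varied. Within groups, the SD of Pmaip1 was 0.78 on the log2 CPM scale, larger than that of 98.0% of the 702 tested genes with a median level within 1.5-fold of its own. Bcl2 had an SD of 0.56, above 93.7% of 687 genes of like level. Both genes thus stood near the variable end for their level. Bcl2l11 had 0.35 (above 80.5% of 1118 genes), while Mcl1, Bcl2l1 and Bid lay in the middle at 0.29, 0.26 and 0.28. Bax was steady at 0.16, below most of the 1827 genes of like level (16.6% had a lower SD). Bak1 and Bbc3 had SDs of 0.55 and 0.74 but also low counts, and 25.4% and 36.4% of genes of like level had lower ones. These values set what the comparisons between groups could resolve.

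**Figure D2:**
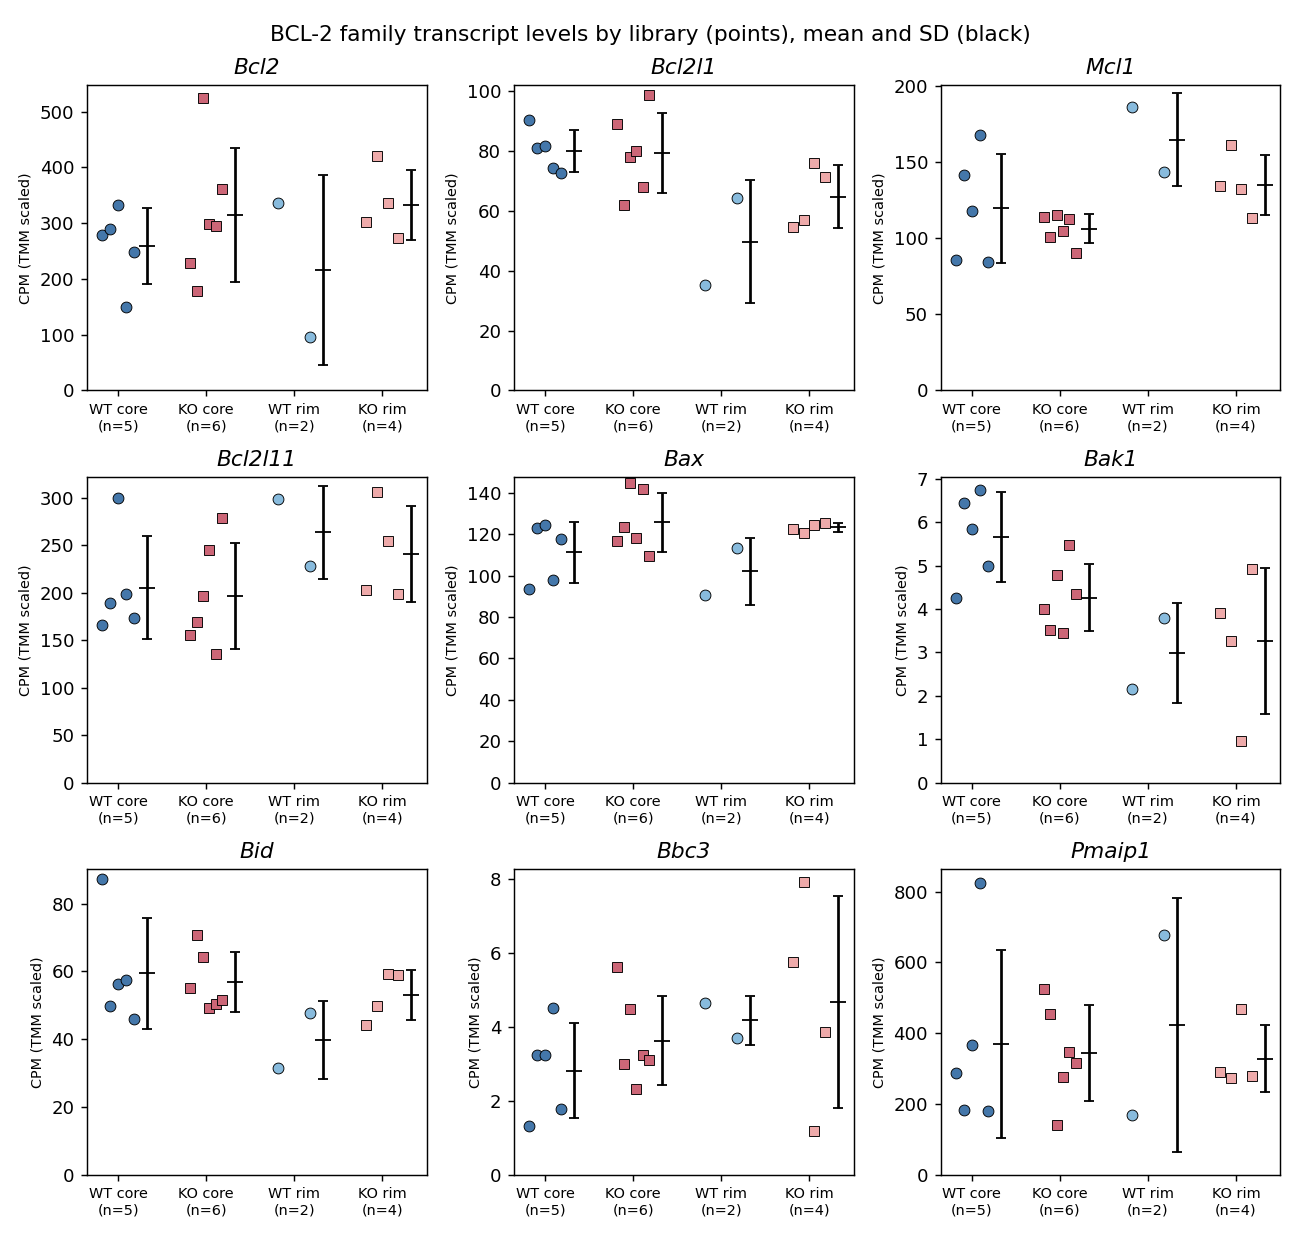
CPM of the 9 members in each of the 17 libraries (points) by group, with the group mean and SD in black, on linear axes from 0. Bcl2 and Pmaip1 spread widely within groups. Both WT rim libraries lie below all WT core libraries for Bcl2l1 and Bak1, as they do for 10.1% of all tested genes.

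Loss of endothelial PD-L1 was compared with WT in core tissue first. No member passed an adjusted p of 0.05, the threshold used throughout (edgeR quasi-likelihood test, Benjamini-Hochberg over 20137 genes). No other gene did either: 0% of genes were called, 6.18% had an unadjusted p under 0.05, and none of the 9 members was among these. By DESeq2, 9 genes and no member passed. The median log2 fold change of the members was -0.06, against -0.01 over all genes tested, with 3 members positive and 6 negative.

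Among the survival genes in core tissue, Bcl2, the classic survival protein of resting and memory T cells, read 279, 289, 332, 150 and 248 CPM in WT F164, H719, H873, H876 and pool. The 6 KO core libraries ran from 179 to 524 CPM with a median of 297. The groups overlapped over nearly the whole WT range, and the fold change was 0.28 on the log2 scale (SE 0.30, 95% interval -0.36 to 0.92, edgeR adjusted p = 1). Bcl2l1, whose product BCL-xL is made upon activation, was 90.2, 81.1, 81.7, 74.3 and 72.6 CPM in WT core in the same order. In KO core it ranged from 62.0 to 98.6 with a median of 79.0 CPM. The means of 79.98 ± 6.99 (SD, n = 5) and 79.2 ± 13.4 CPM (SD, n = 6) nearly coincided, at a log2 fold change of -0.01 (SE 0.16, 95% interval -0.34 to 0.32). Mcl1, which codes for a short-lived survival protein, had 84.7 to 168 CPM in WT core and 90.2 to 115 CPM in KO core. The KO values all lay inside the WT range, with a log2 fold change of -0.17 (SE 0.16, 95% interval -0.52 to 0.18).

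None of the effectors or BH3-only genes was called in core tissue either. Bax read 93.4, 123, 125, 97.9 and 118 CPM in WT F164, H719, H873, H876 and pool, and 109 to 145 CPM with a median of 121 in KO core. Its log2 fold change of 0.18 (SE 0.10, 95% interval -0.05 to 0.40, edgeR adjusted p = 0.910) had the narrowest interval of the 9 members. Bak1 was at 5.66 ± 1.03 CPM (SD, n = 5) in WT core and 4.26 ± 0.779 (SD, n = 6) in KO core. Bcl2l11, the gene of the T cell killer BIM, had 205 ± 54.3 (SD, n = 5) and 197 ± 55.4 CPM (SD, n = 6), with a log2 fold change of -0.06 (95% interval -0.49 to 0.36). Bid, which links death receptors to mitochondria, had a log2 fold change of -0.06 (95% interval -0.42 to 0.30). Bbc3 and Pmaip1 had wider intervals, -0.59 to 1.31 around 0.36 and -0.9998 to 0.79 around -0.10. All 9 pairs of groups overlapped, where 0.397% of all genes had groups that did not.

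In rim tissue the genotype comparison rests on 2 WT libraries, which were taken to vary like the other groups. Again 0% of genes were called by edgeR and no member was, while 7.35% of genes and none of the 9 had an unadjusted p under 0.05. By DESeq2, 269 genes passed, none of them a member. Bcl2 read 337 CPM in WT H874 but 96.3 CPM in WT H877. In KO rim it was 302, 420, 336 and 273 CPM in F15, F322, F86 and O. The KO libraries lay around H874 and far above H877, so the fitted log2 difference of 0.62 (SE 0.44, edgeR adjusted p = 0.749) was decided by which WT library was kept: it was -0.0037 without H877 and 1.79 without H874. Pmaip1, the gene of the MCL-1 antagonist NOXA, showed the reverse order, with 169 CPM in H874 and 678 CPM in H877. Its KO rim values were 291, 273, 469 and 280 CPM in F15, F322, F86 and O, all between the WT libraries. Its log2 fold change moved from -0.37 (SE 0.60) to -1.05 without H874 and to 0.98 without H877.

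Bax was the one member whose rim groups did not overlap. It read 90.8 and 113 CPM in WT H874 and H877, against 123, 121, 125 and 126 CPM in KO F15, F322, F86 and O. The 4 KO libraries lay close together and above both WT libraries, at a log2 fold change of 0.27 (SE 0.15, 95% interval -0.05 to 0.59, edgeR adjusted p = 0.707). Groups that do not overlap are common at this size: 13.7% of all genes had them, 6.86% with KO higher. The other members had log2 fold changes between -0.28 (Mcl1) and 0.42 (Bid). Bcl2l1 had 35.3 and 64.2 CPM in WT rim and 54.7, 56.9, 76.1 and 71.2 CPM in KO rim, with a log2 fold change of 0.38 (SE 0.23, 95% interval -0.10 to 0.86). Whether the genotype effect differed between rim and core was tested directly, and no member passed (0% of genes called by edgeR, 7.68% and no member at an unadjusted p under 0.05, 160 genes and no member by DESeq2). The largest member difference in that test was 0.54 for Bak1 (SE 0.62), and that of Bcl2l1 was 0.39 (95% interval -0.19 to 0.97).

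**Figure D3:**
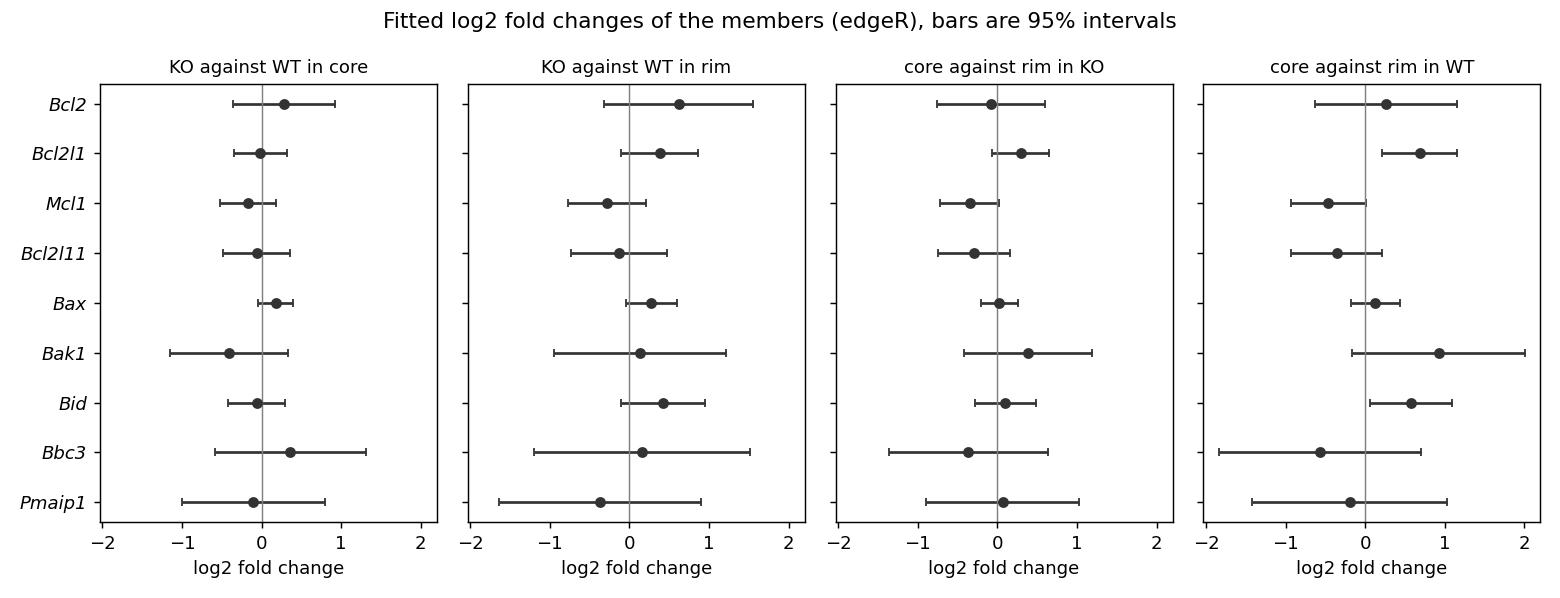
Log2 fold changes of the 9 members from edgeR in the 4 comparisons between groups, with bars for 95% intervals. All intervals for KO against WT span 0, and in core against rim the intervals of Bcl2l1 and Bid in WT lie above 0.

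Core and rim were then compared within each genotype. In KO mice no gene was called by edgeR (0%, with 7.95% of genes at an unadjusted p under 0.05), and no member was in either set. By DESeq2, 35 genes and no member passed. All 9 pairs of KO groups overlapped, where 1.6% of genes had groups that did not. In WT mice 777 genes were called (3.86%), 2.1% higher in core and 1.76% lower, and again no member was. At an unadjusted p under 0.05, which 18% of genes reached in WT, 2 of the 9 members were found, Bcl2l1 and Bid, both higher in core. A share of 2 in 9 is close to that background. The count of 777 was 68 without WT rim H874, 411 without WT core H873 and 500 without WT core H719.

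Bcl2l1 was the member with the clearest difference by site. Its WT core values of 72.6 to 90.2 CPM all lay above the WT rim values of 35.3 (H874) and 64.2 (H877). The log2 fold change was 0.68 (SE 0.22, 95% interval 0.21 to 1.16, unadjusted p = 0.00721, edgeR adjusted p = 0.101), and 10.1% of all genes had WT groups that did not overlap with core higher. The call depended on the tool: DESeq2 gave an adjusted p of 0.0368, in a comparison where it called 1907 of 20137 genes. The size of the log2 fold change depended on H874, the lowest library. It was 0.31 without H874 and 1.20 without H877. In KO mice, core libraries had 62.0 to 98.6 CPM and rim libraries 54.7 to 76.1 CPM, with a log2 fold change of 0.29 (SE 0.17, 95% interval -0.06 to 0.65, edgeR adjusted p = 0.698). The direction was thus the same in both genotypes, with overlap in KO. Averaged over both genotypes, a comparison added after those values had been seen, Bcl2l1 was higher in core by 0.49 (SE 0.14, 95% interval 0.19 to 0.78, edgeR adjusted p = 0.0465), a fold of 1.40. It was the only member called, where 6.37% of all genes (1283) were called and 3.31% were called higher in core and 3.06% lower. At an unadjusted p under 0.05 stood 3 of the 9 members (Bcl2l1, Mcl1 and Bid) and 21.3% of all genes. The count of 1283 called genes was 189 without WT rim H874 and 781 without KO rim F322.

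That averaged call lay close to the threshold. It held under 11 of 24 other settings, over which the adjusted p ran from 0.00931 to 0.388. Leaving out 1 library ended it for WT core F164, H719 or H873, KO core F219, F319, F322 or O, WT rim H874, and KO rim F15 or F322. The value itself moved by more than 1.5 times for WT rim alone, to 0.30 without H874 and to 0.74 without H877. Scaling by DESeq2's size factors in edgeR gave an adjusted p of 0.0506, and the 12 libraries without Y-linked reads gave 0.208. In all 24 settings the sign stayed positive.

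Several other members had site differences that did not pass the test. Mcl1 had lower means in core in both genotypes. WT core read 85.8, 142, 118, 168 and 84.7 CPM in F164, H719, H873, H876 and pool, against 186 and 143 CPM in WT rim H874 and H877. KO core ran from 90.2 to 115 CPM with a median of 109, and KO rim read 135, 161, 132 and 113 CPM in F15, F322, F86 and O. The averaged log2 difference was -0.40 (SE 0.14, 95% interval -0.70 to -0.11, edgeR adjusted p = 0.102), and without WT core H876 it was -0.47 with an adjusted p of 0.0336. Bcl2l1 and Mcl1, both survival genes, therefore had averaged differences of opposite sign. Bcl2l11 had averages of 205 and 197 CPM in WT and KO core and 263 and 241 CPM in WT and KO rim, with an averaged log2 difference of -0.33 (SE 0.17, edgeR adjusted p = 0.294). Bid was at 59.4 ± 16.3 CPM in WT core (SD, n = 5), 56.9 ± 8.77 in KO core (SD, n = 6), 39.7 ± 11.5 in WT rim (SD, n = 2) and 53.002 ± 7.28 in KO rim (SD, n = 4). Its difference was 0.58 in WT (SE 0.24, edgeR adjusted p = 0.215) and 0.10 in KO (SE 0.18).

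The effectors and the p53-linked genes showed little by site that exceeded the spread. Bak1 read 4.26 to 6.75 CPM in WT core and 2.17 and 3.80 CPM in WT rim, 0.92 apart on the log2 scale (SE 0.51, edgeR adjusted p = 0.369). These groups did not overlap, which was common at this size: 19.8% of all genes had such WT groups, 10.1% with core higher. In KO the Bak1 ranges overlapped, and rim F86 was at 0.965 CPM, the lowest Bak1 value of the 17 libraries. Bax differed by 0.13 in WT (95% interval -0.18 to 0.43) and 0.03 in KO (95% interval -0.21 to 0.26), the smallest interval among the members. Bbc3 was at -0.57 in WT (SE 0.60) and -0.37 in KO (SE 0.47). Pmaip1 was at -0.20 in WT (SE 0.58) and 0.07 in KO (SE 0.45). For Bcl2 the difference was 0.26 in WT (SE 0.42) and -0.08 in KO (SE 0.32), and the WT value was -0.36 without H877 and 1.43 without H874.

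Some marker sums differed by site in WT, while in KO the core and rim ranges overlapped for all those given here. All 5 cell cycle markers were detected, with sums of 553 to 1253 CPM in WT core and 440 to 1129 in KO core, against 114 to 157 in WT rim and 225 to 615 in KO rim. The 10 macrophage and monocyte markers, all detected, summed to 1879 to 5597 CPM in WT core and 1822 to 5459 in KO core, and to 1150 to 1848 in WT rim and 654 to 7663 in KO rim. Both WT rim libraries thus lay below all WT core libraries, and the macrophage gene C1qa was at 9.57 and 11.7 CPM in WT rim against 49.2 to 188 in WT core. The 5 fibroblast markers summed to 3.43 to 3.89 CPM in WT rim, 7.04 to 38.3 in WT core, 0.809 to 125 in KO core and 3.61 to 78.1 in KO rim. The 6 dendritic markers summed to 718 to 2904 CPM in WT core and 683 to 2428 in KO core, and to 2064 to 3238 in WT rim and 1029 to 2156 in KO rim. Ccr7, which naive and memory T cells also express, made up 3187 CPM of the highest of these sums (WT rim H874). Without Ccr7, the other 5 dendritic markers overlapped between sites, at 112 to 1644 CPM in WT core, 96.8 to 1921 in KO core, 50.5 to 1234 in WT rim and 67.2 to 683 in KO rim. No marker of these 4 lists was at 0 throughout a group. Their part in the core and rim values of Bcl2l1, Mcl1, Bid and the pathway genes was not tested.

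Bcl2 and Pmaip1 ran in opposite directions over the libraries. The correlation of their log2 CPM over 17 libraries was r = -0.717 (permutation p = 0.0012, adjusted over 36 pairs of members 0.0432) with a Spearman rho of -0.549 (permutation p = 0.0242, adjusted 0.296). It was the only one of the 36 pairs to pass by Pearson's r, and none passed by Spearman's rho. Without WT core H876 and WT rim H877, the libraries farthest from the median of Bcl2, r fell in size to -0.490 over 15 libraries, so part of the relation rests on those libraries. With group means removed r was -0.801, with 1 library per identifier -0.784 (n = 14), and within the 6 KO core libraries alone r was -0.907 and rho -0.886. Among 10403 other genes at 5 CPM or more on average, 1.14% had an r with Pmaip1 at or below that of Bcl2, and 1.26% had an r with Bcl2 at or below that of Pmaip1. The libraries share a preparation and, for F322, F86 and O, an identifier.

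The extremes show the pattern in single libraries. KO core F319 had the highest Bcl2 (524 CPM) and the lowest Pmaip1 (141 CPM). WT core H876 had the highest Pmaip1 (825 CPM) and a Bcl2 of 150 CPM, and WT rim H877 had 678 CPM of Pmaip1 beside the lowest Bcl2 (96.3 CPM). The 4 libraries with the lowest Bcl2, namely H877, H876, KO core F318 and KO core F219, were also the 4 with the highest sum over the natural killer cell markers, at 366, 581, 570 and 317 CPM. All 4 of these markers were detected and none was at 0 throughout a group. Over the groups, the natural killer sums ran from 67.0 to 581 CPM in WT core, 103 to 570 in KO core, 58.4 to 366 in WT rim and 71.6 to 193 in KO rim. Tyrobp, which myeloid cells also express, was 500.3, 457, 299 and 246 CPM of the sums in H876, F318, H877 and F219, while Klri2 was at 5.12 CPM in H877 and Ncr1 was higher in F164 (18.5 CPM) than in H877 or F219. Siglech, a marker of plasmacytoid dendritic cells named after its values were seen, was highest in KO core F318, WT core H876 and WT rim H877, at 1433, 1174 and 849 CPM. KO rim F86, with a Pmaip1 of 469 CPM, followed at 509 CPM of Siglech. KO core F219 had more Pmaip1 (526 CPM) than F86 but was not among these highest Siglech libraries. By group, Siglech ran from 1.08 to 1174 CPM in WT core, 15.9 to 1433 in KO core, 13.4 to 849 in WT rim and 0.746 to 509 in KO rim. The natural killer sum, most of it Tyrobp, was thus highest in the 4 libraries at the low-Bcl2 end. The other markers of that list did not all single out these 4. Klrb1c was highest in F318, H877 and H876 (58.3, 53.1 and 42.2 CPM), but higher in WT core H873 (34.2 CPM) than in F219 (30.4 CPM). Klri2 was highest in KO core F322 (42.4 CPM) and H873 (41.5 CPM). Siglech was raised in H877, H876 and F318. Not all lists followed: the macrophage and monocyte sum was 1848, 5360, 1822 and 5459 CPM in H877, H876, F318 and F219, and 7663 CPM in KO rim O. The part of other cells in the Bcl2 and Pmaip1 values was not tested.

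**Figure D4:**
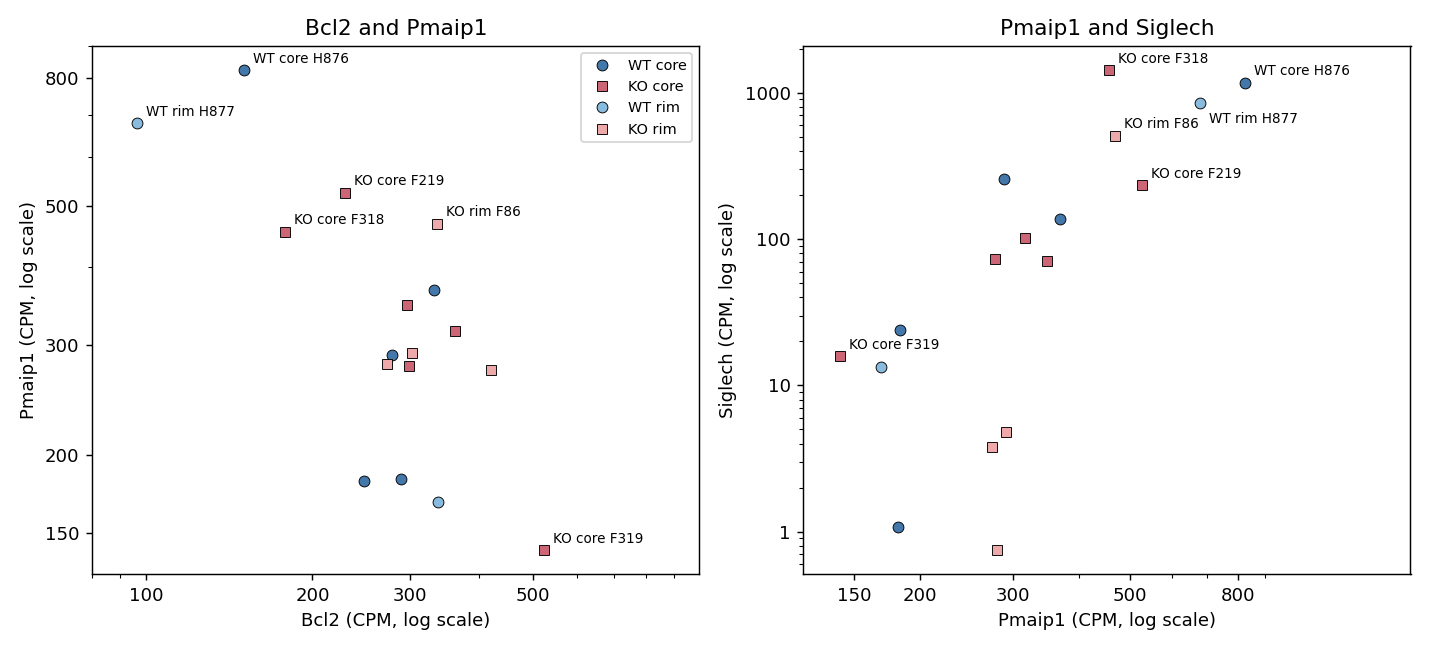
Left, Pmaip1 against Bcl2 in CPM on log axes for each of the 17 libraries, coloured by group; right, CPM of Siglech, a plasmacytoid dendritic cell marker, against Pmaip1 on log axes. H876 and H877 lie at high Pmaip1 and low Bcl2, F319 lies at the other end, and F318, H876, H877 and KO rim F86 carry the highest Siglech.

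The next pairs did not pass the adjustment. Bcl2l1 and Mcl1 had r = -0.640 (permutation p = 0.00393, adjusted 0.0707) and rho = -0.458 (permutation p = 0.0660, adjusted 0.407). It was -0.459 without WT rim H874 and KO rim F15 and -0.377 with group means removed. Mcl1 and Bbc3 had r = 0.562 (permutation p = 0.0190, adjusted 0.171) and rho = 0.652 (permutation p = 0.0055, adjusted 0.198), and r was 0.545 without WT core H876 and WT rim H874. Bcl2 and Bcl2l11, the survival gene and its main BH3-only antagonist in T cells, had r = 0.290 (permutation p = 0.265, adjusted 0.680) and rho = 0.552 (permutation p = 0.0247, adjusted 0.296), with r = 0.541 without H876 and H877. Their ratio of CPM, which depends on gene lengths and is compared here only between libraries, was 0.757 to 1.68 in WT core, 1.06 to 2.67 in KO core, 0.422 and 1.13 in WT rim, and 1.32 to 1.49 in KO rim. The lowest ratio was in H877 and the highest in F319. These also had the lowest and highest Bcl2, which is the numerator, so that match is largely built in.

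The 3 genes most like each member were found by the highest Pearson r of log2 CPM over the 17 libraries among 10397 genes. They are a description, with no test, since they are the top of many. Spearman's rho ordered them otherwise, from 0.605 (Bak1 and Il1rn) to 0.924 (Bcl2l11 and Zfp119b). Bcl2 was most like Apol7e (r = 0.909), Myc (0.902) and Gas5 (0.897), Myc being the growth-promoting transcription factor. Pmaip1 was most like 5430427O19Rik (0.910), Rgs18 (0.909) and Ccnd1 (0.908), the last coding for cyclin D1. Bcl2l1 was most like Farp1 (0.900), Lad1 (0.884) and Lgals3bp (0.861), and Mcl1 most like Klhl21 (0.898), Btg1 (0.882), an anti-proliferative gene of resting lymphocytes, and Gpn3 (0.865). Bak1 was most like Tmtc3 (0.926), Kifc1 (0.922), a mitotic kinesin, and Il1rn (0.875), with lower rho of 0.762, 0.701 and 0.605. For Bid they were Etv5 (0.852), Tubd1 (0.848) and Rabl3 (0.814), for Bax Grina (0.8287), Apex2 (0.824) and Otud7b (0.821), and for Bbc3 Rxylt1 (0.833), Ctdsp1 (0.828) and Timm44 (0.772). Bcl2l11 had the weakest likeness by Pearson's r, led by Brpf1 (0.797).

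The wider pathway was read from 5 lists around the members. By edgeR no gene of any list was called for KO against WT in core or rim, for core against rim in KO, or for the difference of genotype effects, while DESeq2 called 1 p53 pathway gene for KO against WT in rim. In WT core against rim, 8 genes reported from the lists were called, of 14, 15, 12, 12 and 15 tested in the 5 lists. Of all genes, 3.86% were called. The lists were chosen with earlier results of these data known, so the count was not weighed against that share. All 8 had groups without overlap, as did 19.8% of all genes, but they were picked by their call in this same comparison. Of the 14 other BCL-2 family genes tested, 2 were higher in core, 1 was lower, and the median log2 fold change was 0.57 against 0.03 over all genes. Bnip3, a hypoxia-inducible mitophagy gene, had 40.3 to 62.4 CPM in WT core and was 1.67 higher there on the log2 scale (SE 0.42, edgeR adjusted p = 0.0365). Bcl2a1b, a survival gene induced by antigen receptor and NF-kB signals, had 126 to 205 CPM in WT core and 40.4 and 108 CPM in WT rim, which made a difference of 1.22 (SE 0.31, adjusted p = 0.0396). The Bcl2a1 copies are nearly identical in sequence, so the share of reads given to each is uncertain. Bnip3l, also a mitophagy gene, was the lower one, at -0.39 (SE 0.11, adjusted p = 0.0464).

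Downstream of the mitochondria, the 15 apoptosome and caspase genes reported here had a median log2 fold change of -0.06 in WT core against rim. By edgeR none of them was called, and 4 had an unadjusted p under 0.05, as did 18% of all genes. DESeq2 called 1 of them, and 1907 of all 20137 genes. Of 12 death receptor genes, Tnfsf10, which codes for the death ligand TRAIL, was higher by 1.67 (SE 0.37, edgeR adjusted p = 0.0205), with a list median of 0.17. Of 12 p53 pathway genes tested, Sesn1, a p53 and FOXO target, was lower, at -1.68 (SE 0.36, adjusted p = 0.0196), with a list median of 0.14. Of 15 survival cytokine genes, Il2ra, the high-affinity chain of the IL-2 receptor, was higher by 2.10 (SE 0.48, adjusted p = 0.0240). In the same list Jak1, a kinase of the common gamma chain receptors, was lower, at -0.92 (SE 0.21, adjusted p = 0.0239). Foxo1, a transcription factor that drives Il7r, was also lower, at -1.11 (SE 0.28, adjusted p = 0.0398), with a list median of -0.24. The calls depended on the setting. Limma voom with quality weights called none of the 8 (adjusted p from 0.0552 to 0.127), and the libraries without Y-linked reads kept 4 (Tnfsf10, Sesn1, Il2ra and Jak1) and lost Bnip3, Bcl2a1b, Bnip3l and Foxo1 (adjusted p from 0.0712 to 0.107). Of single libraries, WT rim H874 mattered most: without it none of the 8 was called, and without H877 3 of the 8 were (Bcl2a1b, Sesn1 and Il2ra). H874 was the only single library whose removal ended the calls of Sesn1 and Il2ra, at adjusted p of 0.602 and 0.287. Among the WT core libraries, the call of Jak1 was also lost without H873, that of Foxo1 without H873, H876 or pool, that of Bnip3 without H719, H873 or pool, that of Bcl2a1b without H719, H873, H876 or pool, and that of Bnip3l without F164, H719, H873 or H876. The highest adjusted p over all settings were 0.153 for Jak1, 0.413 for Foxo1, 0.204 for Bnip3, 0.420 for Bcl2a1b, 0.251 for Bnip3l and 0.203 for Tnfsf10.

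Averaged over both genotypes, the added comparison, the lists gave 11 called genes reported here, of 14, 15, 12, 12 and 15 tested. Of all genes, 6.37% were called. Since the lists were chosen with earlier results known and the comparison was added after seeing the data, the count was not weighed against that share. The other BCL-2 family genes higher in core were Bnip3 (1.29), Bcl2a1d (0.89) and Bcl2a1b (0.74), and Bnip3l was lower (-0.24). Cycs (0.35), the cytochrome c that BAX and BAK release, Tnfsf10 (1.14) and Il2ra (1.29) were higher. Sesn1 (-1.25), Mdm2 (-0.47), the p53 ubiquitin ligase, Il7r (-1.24), the IL-7 receptor, and Jak1 (-0.53) were lower. Without WT rim H874, only Bnip3 remained among the called (adjusted p = 0.0460), and without H877 8 of the 11 were, all but Bnip3l, Cycs and Jak1. The libraries without Y-linked reads kept 3 of the 11 calls (Tnfsf10, Sesn1 and Il2ra). Lost there were Bnip3, Mdm2, Jak1 and Il7r at adjusted p of 0.0514, 0.0508, 0.0535 and 0.0553, and Bcl2a1d, Bcl2a1b, Bnip3l and Cycs at 0.0923 to 0.152. Quality weights in limma voom ended those of Bnip3l and Cycs. The calls of Bnip3l and Cycs were the least stable, being lost without any of 10 and 12 of the 17 libraries. That of Bcl2a1b was also lost without WT core H873 or KO rim F322 or F86, and that of Jak1 without WT core H873 or KO rim F322. Beside these genes stand the members themselves: Bcl2l1 at 0.49 and, not called, Mcl1 at -0.40 and Bcl2 at 0.09.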

How the data were processed

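The authors deposited raw counts by gene symbol in a single table, not normalized, and all 17 columns matched 1 labelled sample each. Per the submitters' processing notes, featureCounts, Subread 2.0.0, HISAT2, Bowtie2 2.4.5 and cutadapt 3.2 were used with GRCm38 (mm10). Per the labels' protocols, RNA came from the RNeasy Micro Kit and libraries from the TruSeq RNA kit. The sources used here do not give strand use or sort purity, so reads of overlapping antisense genes cannot be told apart.

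The tests used edgeR 4.0.16 (R 4.3.3): filterByExpr on the 4 groups (20137 of 27240 genes kept), TMM scaling, and 1 robust quasi-likelihood fit over all 17 libraries, with two-sided F tests and Benjamini-Hochberg adjustment over all tested genes. The standard error is the fold change divided by the root of F. CPM were computed from TMM-scaled totals, and log2 CPM with a prior count of 2. Exon lengths, positions and coding sequences came from GENCODE vM21. Correlations used 100000 permutations of libraries. The alternatives were DESeq2 1.42.0, limma 3.58.1 (voom), other scalings, no filter, a block on identifiers, libraries without Y-linked reads, and each library left out.

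The 9 members, the pathway lists and the marker lists were chosen with earlier results of these data known. From each pathway list, up to 4 called genes per comparison with at least 5 CPM in the higher group are named. One listed gene is not reported here and is left out of the list counts and medians. The 3 genes most alike to each member are named by Pearson's r. The average of core against rim over both genotypes was added after seeing the data. On simulated counts for core against rim in WT (18588 genes), 21 of 100 genes changed 2-fold and 74 of 100 changed 4-fold were recovered, with 4 unchanged genes called. Identifiers F322, F86 and O occur at both sites, and their libraries' deviations from the group means correlated at 0.0721, 0.0449 and 0.0818. No pairing was used in the main fit. These correlations cannot show whether libraries of 1 identifier came from the same animal. Y-linked reads in core and rim were 449 and 503 CPM for F322, 511 and 480 for O, and 0 in both F86 libraries.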

Additional observations from a re-analysis of the deposited data

Results flagged for a closer look

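In 4 of 27 groups of a member that could be checked (WT core, KO core and KO rim), 1 library stood far from the others, its gap to the nearest being a large part of the group's whole range. The limits used flag about 1 in 20 groups by chance if values are normally distributed. The check used CPM without a log scale, and all 4 flagged values were the highest of their group. That rate therefore need not hold here, and the 4 were not weighed against it. Pmaip1 in WT core H876 was at 825 CPM, with 367 CPM in the next library (gap over range 0.711). Pmaip1 in KO rim F86 was at 469 CPM, with 291 CPM next (0.909). Bcl2l11 in WT core H873 was at 299.6 CPM, with 199 CPM next (0.755). Bid in WT core F164 was at 87.2 CPM, with 57.6 CPM next (0.717).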

How the results depend on the processing

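Of the 54 log2 fold changes of members (9 genes in 6 comparisons), 28 kept 1 sign under every alternative run, and over all 1008 alternative values 67 had the opposite sign. The cause was not tested. In 3 of the 54, some alternative gave a call, namely Bcl2l1 in both core against rim comparisons given above and Mcl1 in their average. The precision is limited by the number of libraries, above all the 2 of WT rim, and for Bak1 and Bbc3 by low counts. Of 2-fold changes simulated for core against rim in WT, 21 of 100 were recovered. The SE of the members in core against rim in WT ran from 0.15 (Bax) to 0.60 (Bbc3). Recovery at the spread of each member was not tested.

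Counts of genes called changed as follows. DESeq2 called 9 genes for KO against WT in core, 269 for KO against WT in rim, 35 for core against rim in KO, 1907 in WT, 160 for the difference of genotype effects and 2436 for the averaged core against rim. Limma voom with quality weights called 8, 2 and 161 for KO against WT in rim and core against rim in KO and WT. Without the filter, 2 genes were called for KO against WT in rim and 4 for the difference. The libraries without Y-linked reads gave 313 for core against rim in WT and 345 for the average. Leaving out 1 library gave 0 to 26 for KO against WT in rim, 68 to 795 for core against rim in WT, 0 to 14 for the difference and 189 to 1560 for the average. Of the members, DESeq2 called 1 for core against rim in WT, and 0 to 1 were called on leaving out 1 library. In the average, 0 were called with DESeq2's scaling in edgeR, without the filter and without Y-linked libraries, and 0 to 2 on leaving out 1 library.

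With the replicate block, limma voom called 9 genes for KO against WT in rim and 2 for core against rim in KO, and the correlation within identifiers was 0.0425. The libraries KO rim F86 and O each correlated best with a core library of another identifier. Log2 fold changes that turned sign with the block were 0.0209 (Pmaip1) for KO against WT in core, -0.0378 (Bak1) and -0.135 (Bbc3) in rim, and -0.0044 (Pmaip1) for core against rim in KO. In edgeR with the replicate block on the 6 paired KO libraries they were -0.0282 (Bax), -0.159 (Bid) and -0.0901 (Pmaip1), and for the same 6 libraries not blocked -0.0205, -0.164 and -0.129. The block changed no call of a member.

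Signs also turned in these settings. Quality weights gave 0.000544 (Bcl2l1) and 0.147 (Pmaip1) for KO against WT in core. Without Y-linked libraries, the values were -0.296 (Bak1) and -0.274 (Bbc3) for KO against WT in rim, 0.240 (Bbc3) and -0.0488 (Pmaip1) for core against rim in KO, and 0.179 (Bcl2l11) and 0.0230 (Pmaip1) for the difference of genotype effects. Leaving out 1 library gave these ranges. For KO against WT in core they were -0.10 to 0.0629 (Bcl2l1), -0.16 to 0.11 (Bid), -0.20 to 0.10 (Bcl2l11) and -0.30 to 0.41 (Pmaip1). For KO against WT in rim they were -0.29 to 0.0731 (Bcl2l11), -0.22 to 0.61 (Bak1), -0.00367 to 1.79 (Bcl2), -1.05 to 0.98 (Pmaip1) and -0.22 to 0.49 (Bbc3). For core against rim in KO they were -0.29 to 0.0617 (Bcl2), -0.0855 to 0.28 (Pmaip1), -0.0227 to 0.0723 (Bax) and -0.69 to 0.0131 (Bbc3). For core against rim in WT they were -0.0299 to 0.31 (Bax), -0.36 to 1.43 (Bcl2) and -0.88 to 1.15 (Pmaip1). For the difference of genotype effects they were -0.23 to 0.14 (Bcl2l11), -0.27 to 0.0881 (Mcl1), -0.0528 to 0.29 (Bax), -0.28 to 1.51 (Bcl2), -0.94 to 1.09 (Pmaip1) and -0.57 to 0.14 (Bbc3). For the average they were -0.41 to 0.61 (Pmaip1), -0.22 to 0.67 (Bcl2) and -0.00347 to 0.17 (Bax).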
